A study of Mus musculus with 8 samples.

Results

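The apolipoprotein L genes of mouse chromosome 15 were followed in ear epidermal sheets of 8 mice. The 10 genes described are Apol6, Apol7a, Apol7b, Apol7c, Apol7e, Apol8, Apol9a, Apol9b, Apol10a and Apol10b, taken by name from the 51912 genes in the count files. They were selected on their counts in these libraries, with the comparison of A20KIKO against A20WT in view, so their differences between the groups are a description and carry no test. The libraries labelled A20KIKO (n = 4) came from mice with floxed A20 alleles (A20F/F) that carried Krt5-CreERT2, a tamoxifen-inducible Cre recombinase under the promoter of a basal keratinocyte keratin. Those labelled A20WT (n = 4) came from A20F/F mice without the Cre. At 8 weeks of age both groups received 1 mg of tamoxifen on each of 2 days, and tissue was taken 7 days after the first dose. Each library came from a different mouse. Mice with the Cre and without floxed alleles were not analysed here, so the Cre and the deletion cannot be told apart.

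Apolipoprotein L proteins carry amphipathic helices, associate with membranes and, unlike the plasma apolipoproteins, act largely inside cells. In humans APOL1 lyses trypanosomes and APOL3 attacks bacteria in the cytosol, and several family members are induced by interferons. The mouse cluster expanded separately from the human cluster, so single mouse genes have no one-to-one human partner in most cases. Type I and type III interferons act through a transcription factor complex that includes Stat2 and Irf9 and binds the interferon-stimulated response element (ISRE) in promoters. A20, the ubiquitin-editing enzyme encoded by Tnfaip3, restrains NF-kB signalling.

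Promoters are shown for the members on which the description turns, as the 250 bases upstream of the outermost RefSeq start (RefSeq, build GRCm38.p6), 5' to 3'. Apol9a and Apol9b stand for the pair with the widest difference. Apol7a was also higher, and Apol7c overlapped between the groups. Capitals mark every match on either strand to the core letters of the ISRE, GAAA and GAAA with any 2 bases between them, and overlapping matches were joined.
Apol9a promoter, chr15:77411081-77411330, strand minus: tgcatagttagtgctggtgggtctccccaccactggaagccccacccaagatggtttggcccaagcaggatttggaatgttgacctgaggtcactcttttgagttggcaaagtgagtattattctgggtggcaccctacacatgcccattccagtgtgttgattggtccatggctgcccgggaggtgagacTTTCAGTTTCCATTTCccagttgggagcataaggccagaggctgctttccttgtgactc
Apol9b promoter, chr15:77728822-77729071, strand plus: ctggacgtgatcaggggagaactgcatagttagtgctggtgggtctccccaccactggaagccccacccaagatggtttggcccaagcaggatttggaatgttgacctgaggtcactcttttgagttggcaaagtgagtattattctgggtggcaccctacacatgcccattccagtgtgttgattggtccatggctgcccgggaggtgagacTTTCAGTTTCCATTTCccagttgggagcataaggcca
Apol7a promoter, chr15:77399111-77399360, strand minus: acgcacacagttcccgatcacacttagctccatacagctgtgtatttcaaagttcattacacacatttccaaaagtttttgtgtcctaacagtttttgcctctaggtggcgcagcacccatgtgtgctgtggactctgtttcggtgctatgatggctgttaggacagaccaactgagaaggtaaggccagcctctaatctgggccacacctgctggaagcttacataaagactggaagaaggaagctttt
Apol7c promoter, chr15:77533316-77533565, strand minus: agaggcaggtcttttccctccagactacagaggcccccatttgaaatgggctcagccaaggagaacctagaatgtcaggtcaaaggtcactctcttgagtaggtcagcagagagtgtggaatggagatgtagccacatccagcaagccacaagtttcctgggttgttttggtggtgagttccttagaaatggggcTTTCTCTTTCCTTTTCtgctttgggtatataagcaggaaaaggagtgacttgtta

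The Apol9a and Apol9b promoters were identical over the 228 bases in which they align. Each held a pair of overlapping ISRE core matches, TTTCAGTTTC and TTTCCATTTC. They began 59 and 53 bases upstream of the RefSeq start in Apol9a and 37 and 31 bases upstream in Apol9b. These distances depend on the annotated start. In GENCODE M21 Apol9a starts at 77411135 and Apol9b at 77729039, both within the joined matches. The Apol7c promoter held TTTCTCTTTC and TTTCCTTTTC, 55 and 49 bases upstream. The Apol7a promoter held no match. RefSeq promoters were found for 9 of the 10 members, and 5 of them, Apol9a, Apol9b, Apol7c, Apol7e and Apol10a, held the core, against 3.46% of the 27025 genes with a promoter in the table. Members with near-identical promoters are not independent cases in that count: Apol7b and Apol7e were identical at 97.6% of aligned positions, and of that pair the core was matched in Apol7e alone. The interferon-gamma-activated site TTCNNNGAA, searched on both strands, was matched in Apol10a alone (8.13% of all genes). The kappaB letters GGG and TTCC with any 3 bases between them, the kind of site bound by NF-kB, were matched in Apol10b alone (5.31% of all genes). A match describes letters and does not show that a factor bound.

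Apol9a, Apol9b and Apol7a were the abundant members and were higher in every library labelled A20KIKO than in every library labelled A20WT. Apol9a (ENSMUSG00000057346, chromosome 15, 77403789 to 77411135, minus strand, GRCm38) and Apol9b (ENSMUSG00000068246, chromosome 15, 77729039 to 77736382, plus strand) encode interferon-induced proteins for which antiviral activity has been reported in mouse cells. Levels below are normalised counts (CPM), counts scaled to 1000000 per library with library sizes adjusted by the trimmed mean of M values.

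Apol9a had 106, 42.8, 60.8 and 72.5 CPM in mice 1 to 4 of the libraries labelled A20KIKO, and 6.91, 4.97, 5.93 and 6.69 CPM in mice 1 to 4 of those labelled A20WT. The lowest A20KIKO library lay far above the highest A20WT library. The means were 70.6 ± 26.8 and 6.13 ± 0.877 CPM (SD, n = 4 each), a fitted difference of 11.5-fold (log2 change 3.53, SE 0.25).

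Apol9b had 76.3, 28.9, 45.4 and 51.5 CPM in mice 1 to 4 labelled A20KIKO, and 1.498, 0.973, 1.64 and 1.83 CPM in mice 1 to 4 labelled A20WT. Its means of 50.5 ± 19.6 and 1.48 ± 0.368 CPM (SD, n = 4 each) gave the largest fitted difference among the 6 members with enough counts to be fitted, 33.9-fold (log2 change 5.08, SE 0.32). The groups did not overlap. Both genes were highest in A20KIKO mouse 1 and lowest of that group in A20KIKO mouse 2, so the order of the 4 mice was the same for the pair.

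Apol7a (ENSMUSG00000010601, chromosome 15, 77388219 to 77399110, minus strand), a family member whose function is less well described, had 36.9, 21.5, 22.9 and 19.9 CPM in mice 1 to 4 labelled A20KIKO. It had 5.20, 3.91, 4.14 and 6.33 CPM in mice 1 to 4 labelled A20WT. The groups did not overlap, and the means were 25.3 ± 7.80 and 4.90 ± 1.11 CPM (SD, n = 4 each), a fitted difference of 5.17-fold (log2 change 2.37, SE 0.22). A20KIKO mouse 1 was again the highest library, but A20KIKO mouse 4, second for the Apol9 genes, was the lowest of its group for Apol7a.

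**Figure D1:**
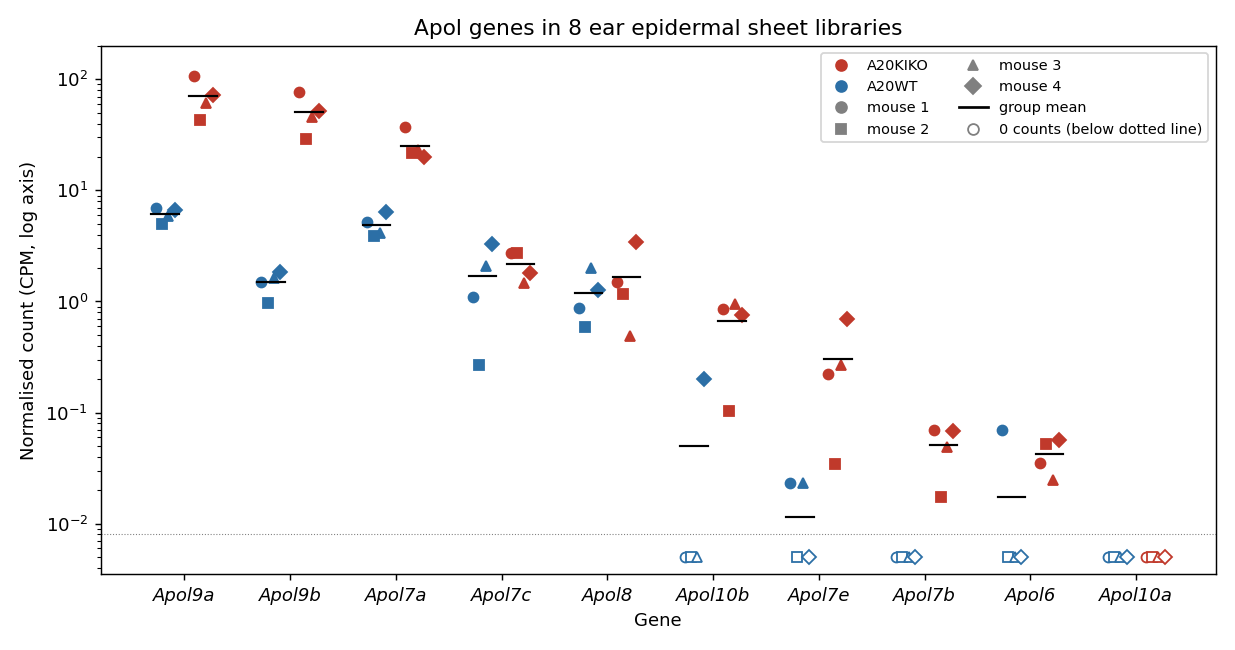
Normalised counts (CPM, log axis) of the 10 Apol genes in each library, in red for A20KIKO and blue for A20WT, with marker shapes for mouse number, bars for group means and open markers below the dotted line for libraries at 0 counts. Apol9a, Apol9b and Apol7a separate the groups, with A20KIKO libraries from 19.9 to 106 CPM and A20WT libraries from 0.973 to 6.91 CPM, while Apol7c and Apol8 overlap.

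Apol7c and Apol8, in the same cluster, overlapped between the groups. Apol7c (ENSMUSG00000044309, chromosome 15, 77524852 to 77533316, minus strand) has been linked to antigen handling in mouse dendritic cells. It had 2.71, 2.73, 1.47 and 1.79 CPM in mice 1 to 4 labelled A20KIKO and 1.11, 0.270, 2.08 and 3.31 CPM in mice 1 to 4 labelled A20WT. The A20WT range enclosed the whole A20KIKO range, and the fitted log2 change was 0.37 (SE 0.56), with 0.02 without A20WT mouse 2 and 0.91 without A20WT mouse 4.

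Apol8 (ENSMUSG00000056656, chromosome 15, 77747798 to 77757003, minus strand) had 1.49, 1.16, 0.490 and 3.45 CPM in mice 1 to 4 labelled A20KIKO. Its levels were 0.876, 0.595, 2.01 and 1.27 CPM in mice 1 to 4 labelled A20WT. The A20KIKO libraries held both the lowest and the highest value, and the log2 change of 0.48 (SE 0.52) became -0.17 without A20KIKO mouse 4. That mouse also had the highest summed level of 8 neutrophil markers, 86.9 CPM against 9.73 to 12.7 CPM in A20KIKO mice 1 to 3, and the part of those cells in the Apol8 value was not tested.

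The remaining 5 members had under 1 CPM in every library, where 3 counts correspond to 0.0342 to 0.0735 CPM. Apol10b (ENSMUSG00000050014, chromosome 15, 77583819 to 77596125, minus strand) had 73, 6, 39 and 67 counts in mice 1 to 4 labelled A20KIKO. The 13 counts of the libraries labelled A20WT were all in mouse 4. Levels were 0.104 to 0.956 and 0 to 0.202 CPM, so the groups overlapped through A20KIKO mouse 2. The fitted log2 change of 3.77 (SE 1.15) rests on A20WT mouse 4. Without that mouse the A20WT libraries were at 0. Set against a floor of 3 counts over that group, the pooled ratio was 51.8, against 15.3 (exact 95% interval 8.75 to 29.3) with the mouse. The ratio to the floor takes the A20KIKO counts as exact, so it is no lower bound. In limma-voom the log2 change was 5.08.

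Apol7e (ENSMUSG00000071716, chromosome 15, 77698857 to 77719285, plus strand) had 19, 2, 11 and 61 counts in mice 1 to 4 labelled A20KIKO, and 2, 0, 2 and 0 in mice 1 to 4 labelled A20WT. Every A20KIKO library lay above every A20WT library in CPM, though the closest libraries held 2 counts each. Pooled over each group, this is a 25.0-fold higher rate in the A20KIKO libraries, with an exact 95% interval for counting error alone of 9.46 to 93.8. A20KIKO mouse 4 held most of the counts, and without it the ratio was 12.7 (4.51 to 49.5). Apol7b (ENSMUSG00000068252, chromosome 15, 77422209 to 77447492, minus strand) had 15 counts in the A20KIKO libraries, 1 to 6 in each, and 0 in each A20WT library. Set against a floor of 3 counts over the A20WT group, its pooled ratio was 5.39. That ratio takes the A20KIKO counts as exact, so it is no lower bound. Apol6 (ENSMUSG00000033576, chromosome 15, 77044729 to 77057106, plus strand), named like human APOL6, which can trigger cell death when overproduced, had 1 to 5 counts in each A20KIKO library and 6 counts in A20WT mouse 1 alone. Its pooled ratio of 2.15 had an exact 95% interval of 0.748 to 7.00, and it rests on that 1 library. Without A20WT mouse 1 the counts were 12 against 0, a ratio of 3.03 to a floor of 3 counts over the group, again no lower bound. Apol10a (ENSMUSG00000050982, chromosome 15, 77477047 to 77491069, plus strand) had 0 counts in all 8 libraries, which allows up to 3 counts per library. The 5 members with the ISRE core thus comprised the Apol9 pair and Apol7e, whose groups did not overlap, Apol7c, whose groups did, and Apol10a, with no reads. Of the members whose promoter lacked the core, Apol7a and Apol7b did not overlap either, and Apol8 and Apol10b did. A relation of the core to the group difference was not tested.

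Of the 10 members, 6 had enough counts to enter the fit over all 16512 tested genes, and 3 of these, Apol9a, Apol9b and Apol7a, passed it as higher in A20KIKO (edgeR quasi-likelihood test, Benjamini-Hochberg adjusted p under 0.05). Among all tested genes 2.43% passed in that direction and 3.49% in either. Of the 6, those 3 also had every A20KIKO library above every A20WT library, as 5.78% of tested genes did, and none had the reverse, as 4.79% did. The untested Apol7b and Apol7e did not overlap either, at a few counts. A fitted rise of at least 5-fold was seen for Apol9a, Apol9b, Apol7a and Apol10b, and for 1.21% of tested genes. By edgeR 0 members passed as lower, beside 1.06% of tested genes, with 0 at an unadjusted p under 0.05 and 0 by DESeq2 and limma-voom. The members were named with this contrast known, so nothing is read from these shares. Members near 0 in A20WT could enter the fit only through high A20KIKO counts, and the median log2 change of the 6 tested members, 2.95 beside -0.0062 over all tested genes, is given as a description only.

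Compared per kilobase of the longest coding transcript, the order of levels in the libraries labelled A20WT was Apol9a with 4.00 ± 0.573, Apol7a with 2.05 ± 0.465 and Apol9b with 0.944 ± 0.234 CPM per kilobase (SD, n = 4). Apol7c and Apol8 followed with 0.820 ± 0.634 and 0.424 ± 0.219. In this order Apol9b overlapped Apol7c, and Apol7c overlapped Apol8, while Apol9a, Apol7a and Apol9b stood apart from each other. In the libraries labelled A20KIKO, Apol9a with 46.1 ± 17.5 and Apol9b with 32.1 ± 12.5 CPM per kilobase overlapped, and Apol7a came next with 10.6 ± 3.26, apart from both neighbours in the order. Apol9b thus stood below Apol7a in A20WT and above it in A20KIKO. The length used matters for Apol9a, whose annotation in GENCODE M21 includes a retained-intron transcript of 4246 bases beside coding transcripts of up to 1530 bases. Per kilobase of all merged exons, a scale added after seeing the data, Apol9b led in A20KIKO (27.7 against 11.9 for Apol9a) and Apol7a in A20WT (1.62 against 1.03 for Apol9a).

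The balance of counts within the Apol9 pair differed between the groups. Apol9b made up 41.7%, 40.3%, 42.8% and 41.5% of the counts of the pair in A20KIKO mice 1 to 4, and 17.8%, 16.4%, 21.6% and 21.5% in A20WT mice 1 to 4. The 95% Wilson intervals of single libraries, for counting error only, spanned 38.8% to 44.2% over the A20KIKO and 12.8% to 25.1% over the A20WT libraries, so no interval of one group reached the other. The group means were 41.6 ± 1.00% and 19.3 ± 2.65% (SD, n = 4 each). Expressed as Apol9a counts per Apol9b count, the ratio was 1.34 to 1.48 in A20KIKO and 3.62 to 5.11 in A20WT. Among the A20KIKO mice the level of each gene spread widely, while the composition of the pair stayed in that narrow range. In GENCODE M21 the merged exons span 5953 bases for Apol9a, with its retained-intron transcript, and 1821 bases for Apol9b. Counts of Apol9a may thus hold reads from unspliced RNA, and their part in this balance was not tested.

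**Figure D2:**
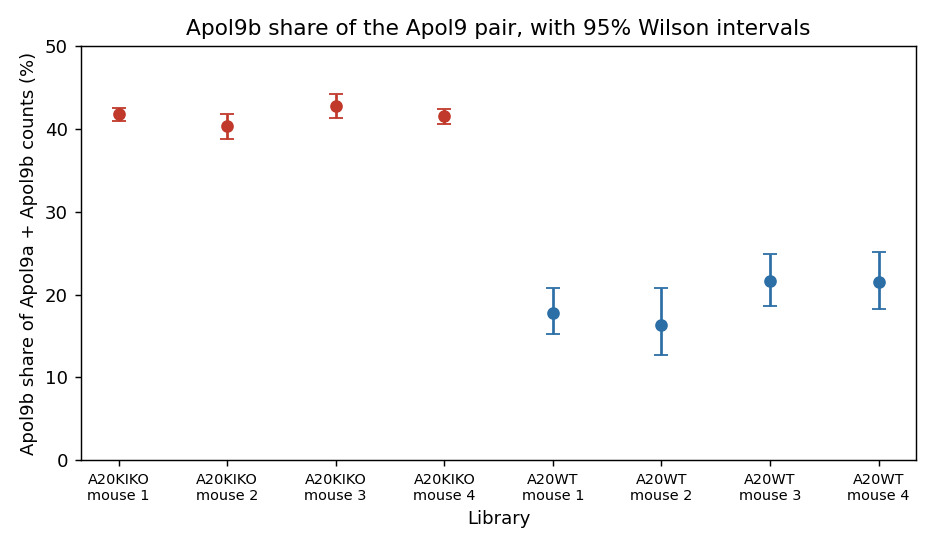
Share of Apol9b in the summed counts of Apol9a and Apol9b (%, vertical axis from 0) for each of the 8 libraries, with 95% Wilson intervals for counting error. The A20KIKO libraries lie at 40.3% to 42.8% and the A20WT libraries at 16.4% to 21.6%.

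Close paralogs can trade or lose reads, and how the counting treated such reads is not stated in the labels. The longest coding transcripts of Apol9a and Apol9b were identical at 92.3% of aligned positions. Of the 100-base windows of the Apol9a transcript, 41.1% occurred unchanged in an Apol9b transcript, and 28.1% of its 150-base windows did, the length of 1 sequencing read. For Apol9b these shares with Apol9a were 34.9% and 23.7%. Reads from the shared stretches could be assigned to either gene or dropped, so the level of each gene and the balance between them are uncertain, while their sum does not depend on how shared reads were split between them, though it does on their loss. Apol7b and Apol7e were closer still, identical at 99.3% of aligned positions, with 56.9% of the 100-base windows of Apol7b present in Apol7e. Their few counts therefore cannot be assigned to one gene with confidence. Apol7a shared 3.75% of its 100-base windows with other genes and none of its 150-base windows, Apol7c shared 6.43% and 0.314%, and Apol8, Apol6 and Apol10b shared none of either length. None of the windows that Apol7a shared occurred in Apol9a or Apol9b. Only exact matches of the longest coding transcript were searched, and the part of inexact matches in the counts was not tested. The library chemistry does not keep the strand, and 64 exonic bases of Apol6 overlap Mb, the myoglobin gene on the opposite strand.

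**Figure D3:**
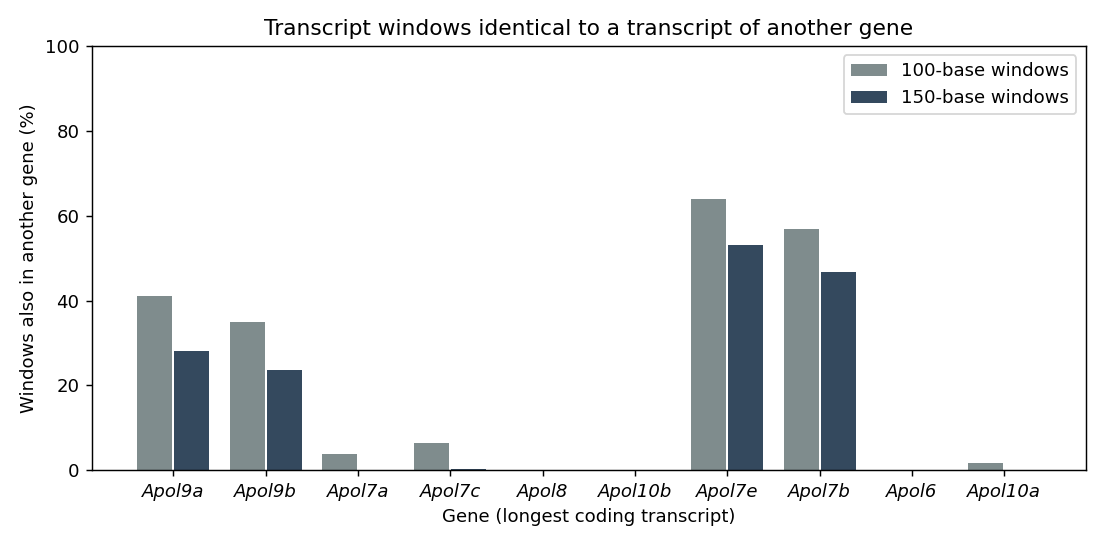
Percentage of windows of 100 bases (grey) and 150 bases (dark) in the longest coding transcript of each Apol gene that occur unchanged in an annotated transcript of another gene. Apol7e, Apol7b, Apol9a and Apol9b share between 34.9% and 63.9% of their 100-base windows, and the other members at most 6.43%.

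The neighbours of the cluster were tested in the same fit, being the 15 protein-coding genes other than Apol genes within 250 kb of the outermost members or between them, and 13 had enough counts. In the edgeR fit 0 of 13 passed (adjusted p from 0.163 to 0.959), 3 had an unadjusted p under 0.05, and DESeq2 and limma-voom called 0. Of all 16512 tested genes 2543 had an unadjusted p under 0.05 in the edgeR fit. The median log2 change of the 13 neighbours was -0.051, with a range of -1.31 to 1.40. Rbfox2, a splicing regulator that lies between Apol6 and Apol7a, had 14.95 ± 0.943 CPM in A20KIKO and 13.4 ± 1.77 CPM in A20WT (SD, n = 4 each; log2 change 0.16, edgeR adjusted p = 0.65). Myh9, the nonmuscle myosin heavy chain gene next to Apol8, had 67.6 ± 6.40 and 51.0 ± 14.3 CPM (log2 change 0.41, edgeR adjusted p = 0.326). The ends of the range were Mb, with 1.41 ± 0.538 and 0.534 ± 0.409 CPM (edgeR adjusted p = 0.218), and the zinc finger gene Zfp647, with 0.184 ± 0.0674 and 0.465 ± 0.161 CPM (edgeR adjusted p = 0.163), both at low counts. Zfp647 alone among the 13 did not overlap between the groups, with the A20WT libraries above, as in 4.79% of all tested genes. Arhgap39, Zfp251, Zfp7, Commd5, Rpl8, 1110038F14Rik, Txn2, Foxred2 and Eif3d had log2 changes between -0.46 and 0.16, and the untested neighbours Cacng2 and 1700025B11Rik had 0 counts.

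**Figure D4:**
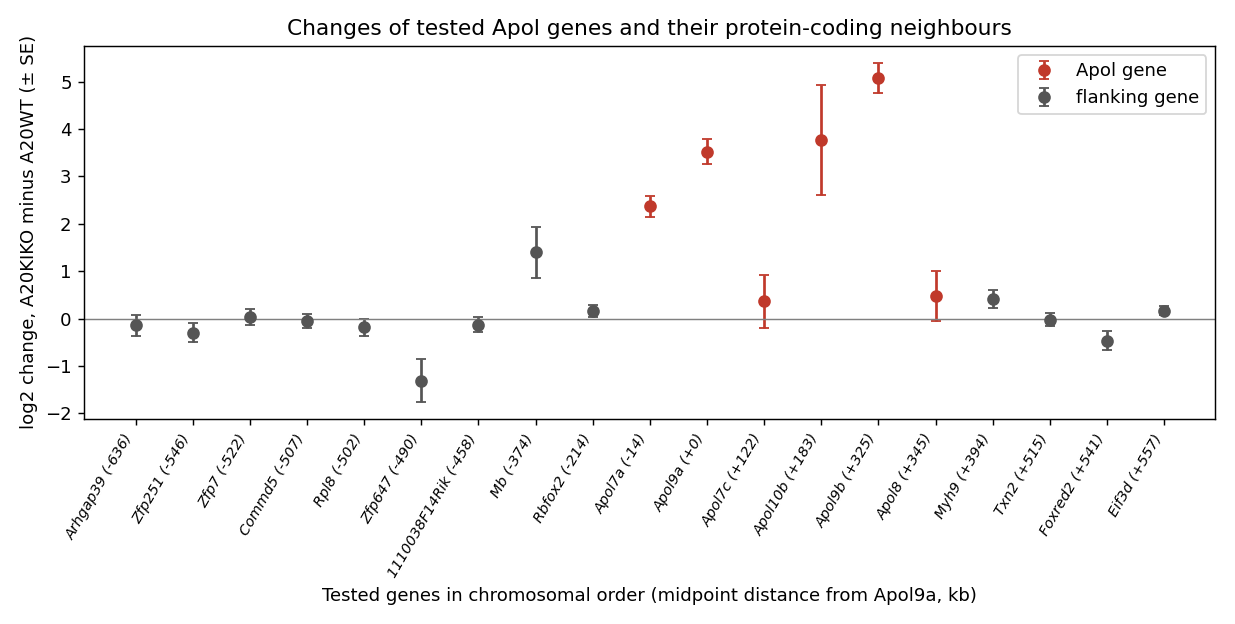
Fitted log2 change (A20KIKO minus A20WT, vertical axis, bars are ± SE) of the 6 tested Apol genes in red and the 13 tested neighbours in grey, in chromosomal order with midpoint distance from Apol9a in kb. Apol7a, Apol9a, Apol10b and Apol9b stand between 2.37 and 5.08, while Apol7c and Apol8, among them, stand at 0.37 and 0.48. The Apol10b value of 3.77 rests on 13 counts in A20WT mouse 4.

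Genes of the same name outside the 10 members gave little signal. Apol11a had 0 counts, Apol11b 2 counts and Apol7d, annotated on chromosome 1, 1 count in all. Apold1, a more distant relative on chromosome 6 known from endothelial cells, had 0.581 ± 0.465 CPM in A20KIKO and 0.447 ± 0.169 CPM in A20WT (SD, n = 4 each; log2 change 0.37, edgeR adjusted p = 0.817). The plasma apolipoproteins share the name and not the sequence family. Of 18 listed plasma apolipoproteins and genes of lipoprotein handling 9 were tested. In the edgeR fit 0 passed, 0 had an unadjusted p under 0.05, and DESeq2 and limma-voom called 0. Apoe had a log2 change of -0.16 (edgeR adjusted p = 0.729) and Apoc1 of -0.02 (edgeR adjusted p = 0.977).

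Genes of interferon signalling were read from the same fit. The 15 receptors and signal transducers had a median log2 change of 0.28. By edgeR's quasi-likelihood test 5 were higher in A20KIKO and 0 lower, beside 2.43% and 1.06% of all tested genes. Leaving out A20KIKO mouse 1 lowered the number called higher from 5 to 3, as did leaving out mouse 2 or mouse 4 of A20WT. Of the ISRE-binding complex, Stat2 rose from 20.4 ± 4.42 to 65.4 ± 19.1 CPM (SD, n = 4 each), by 1.68 on the log2 scale (SE 0.23, edgeR adjusted p = 0.00184). Irf9, its DNA-binding partner, rose by 1.42 on that scale (SE 0.16, edgeR adjusted p = 0.000592). The interferon-gamma receptor chains Ifngr1 and Ifngr2 also passed, with log2 changes of 0.56 and 0.52 (edgeR adjusted p = 0.0142 and 0.0492). The type I receptor chains Ifnar1 and Ifnar2 had log2 changes of 0.25 and 0.57 (edgeR adjusted p = 0.449 and 0.117), and Ifnlr1, the type III receptor, -0.14 (edgeR adjusted p = 0.756).

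Interferon ligands were scarcely detected, and none of 10 listed genes had enough counts to be tested. Ifna1, Ifna2, Ifna4, Ifna5 and Ifne had 0 counts in all libraries. Ifnb1 had 29 counts in all, at 0 to 0.296 CPM in A20KIKO and 0 in each A20WT library. Ifnl2, a type III interferon, had 0.0346 to 1.13 CPM in the A20KIKO libraries and 0 to 0.0180 CPM in the A20WT libraries. Ifnl3 had 0.0173 to 0.626 CPM in A20KIKO and was at 0 in A20WT. Ifnk and Ifng overlapped between the groups, with 15 and 21 counts in all. Ifnk had 0 to 0.0228 CPM in A20KIKO and 0 to 0.0922 CPM in A20WT. For Ifng these ranges were 0 to 0.0797 and 0 to 0.0776 CPM. Ifnl2 and Ifnl3 are paralogs, and the reads they may share were not measured.

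Patterns most like those of the Apol genes were found by the root mean square difference, over the 8 libraries, of log2 CPM relative to the A20WT mean. For Apol9a the nearest of the tested genes with at least 1 CPM were Xaf1, an interferon-induced regulator of apoptosis (0.22 log2 units), the antiviral tether Bst2 (0.25) and the transcription factor Irf7 (0.27). For Apol9b they were the ubiquitin-like protein gene Isg15 (0.27), the oligoadenylate synthetase gene Oas1a (0.45) and the chemokine gene Ccl20 (0.45). Apol9a and Apol9b differed from each other by more, 1.11 log2 units. Apol7a lay nearest to the complement gene C1qa (0.30), 2310043M15Rik (0.31) and the synaptotagmin gene Syt1 (0.33). Apol7c was nearest to Ccdc69 (0.55), Rhoc (0.57) and the chemokine gene Ccl22 (0.57), Apol8 to the beta-defensin gene Defb14 (0.25), Slc1a1 (0.39) and Ndufa4l2 (0.40), and Apol10b to C1qb (0.83), Gbp2 (0.85) and Ifi47 (0.87). These distances rest on 8 libraries in 2 groups, share the group difference, and say nothing of shared control.

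Summed over 30 type I interferon-stimulated genes, which were chosen with results of these libraries known, the level was 2370, 722, 952 and 1830 CPM in A20KIKO mice 1 to 4. Mouse 1 was highest and mouse 2 lowest, as for Apol9a and Apol9b. The A20WT libraries lay between 82.6 and 104 CPM. In the edgeR fit all 30 passed as higher, among them Usp18, Xaf1 and Dhx58 (log2 changes of 4.05, 3.78 and 4.38). That number was 21, 22, 24 and 26 without A20WT mice 1 to 4 in turn, and 25 in limma-voom and without a count filter. Of 21 interferon-gamma-responsive genes 16 passed, among them Irf1, Gbp6 and Tap1 (1.95, 3.21 and 1.17). The medians were 4.75 and 2.30 on the log2 scale. Among all tested genes 2.43% passed as higher. Of 16 tested Bcl-2 family genes, apoptosis regulators listed because human APOL6 has been reported to carry a BH3 domain, Bid and Pmaip1 passed as higher (log2 changes of 1.10 and 0.95, edgeR adjusted p = 0.000928 and 0.0158).

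Whole sheets were lysed, so more cells of a type and more RNA per cell cannot be told apart for any gene above. Keratinocyte markers dominated every library, with summed CPM over 7 suprabasal markers, Krt10 and Lor highest, of 30900 to 39500 in A20KIKO and 26700 to 38000 in A20WT. Of 7 basal markers edgeR and limma-voom called 1, Krt5, which fell from 6227 ± 575 to 3512 ± 133 CPM (SD, n = 4 each; log2 change -0.83, edgeR adjusted p = 0.00272). DESeq2 called 2, the other being Krt15, at 4015 CPM in A20KIKO and 6433 CPM in A20WT (edgeR adjusted p = 0.104). Of the monocyte and macrophage markers 4 of 9 tested were higher in the edgeR fit, C1qa, C1qb, C1qc and Ly6c2, beside 2.43% of all tested genes. The other tested markers, Csf1r, Adgre1, Cd68, Cd14 and Lyz2, were not called (edgeR adjusted p from 0.0891 to 0.753). The summed level of all 13, none of them at 0 in all libraries, was 109 to 191 CPM in A20KIKO against 65.9 to 108 CPM in A20WT. This sum was 155, 109, 135 and 191 CPM in A20KIKO mice 1 to 4. Csf1r, which was not called, held much of it, with means of 80.1 CPM in A20KIKO and 61.7 CPM in A20WT. The part of these cells in the Apol levels was not tested. Conventional dendritic cell markers summed to 11.8 to 19.7 CPM in A20KIKO and 9.88 to 14.9 CPM in A20WT with 0 of 7 tested passing in edgeR, 1 at an unadjusted p under 0.05, 1 called by DESeq2 and 0 by limma-voom. Clec9a alone of the 8 listed had 0 counts in all libraries. Irf8 and Ccr7, the listed markers with the highest levels, had log2 changes of 0.77 and 0.74 (edgeR adjusted p = 0.082 and 0.434). The median log2 change of the tested markers was 0.17. Of 7 Langerhans cell markers H2-M2 alone passed (log2 change 1.08, edgeR adjusted p = 0.0165), and the summed levels, 1990 to 2220 and 1750 to 2270 CPM, overlapped. Fibroblast markers summed to 15.5 to 37.2 CPM in A20KIKO and 39.9 to 55.4 CPM in A20WT, so the groups did not overlap. Of 6 tested, edgeR called 0, limma-voom 2 and DESeq2 3, with 4 at an unadjusted p under 0.05. Melanocyte markers summed to 46.7 to 224 and 42.0 to 56.9 CPM, with 0 of 6 called by edgeR and limma-voom, 3 by DESeq2 and 4 at an unadjusted p under 0.05. Their part in the Apol levels was not tested either. Of 8 neutrophil markers Cxcr2 alone had enough counts to be tested and was not called by edgeR (adjusted p = 0.52). The untested Retnlg, Csf3r and Ly6g reached 22.2, 12.1 and 1.6 CPM among the A20KIKO libraries and at most 0.0155, 0.0812 and 0 CPM among the A20WT libraries. Of the tested markers of T and NK cells (10 of 12), B cells (2 of 5), endothelial cells (6 of 8), and hair follicle and sebaceous cells (7 of 7), 0 were called by edgeR, DESeq2 or limma-voom, with 2 T and NK cell and 2 follicle markers at an unadjusted p under 0.05. Beside the marker numbers at that unadjusted level stand 2543 of all 16512 tested genes. Over all 16512 genes edgeR called 576, DESeq2 1133 and limma-voom 551, in either direction. Tnfaip3 itself was higher under the A20KIKO label, at 74.0 ± 17.3 against 16.5 ± 2.65 CPM (SD, n = 4 each; log2 change 2.16, edgeR adjusted p = 8.36e-05). This goes against the direction a deletion label names. The whole-gene count does not separate deleted from remaining exons and so does not check the deletion.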

How the data were processed

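RNA of 8 ear epidermal sheet samples was sequenced after SMART-Seq v4 amplification and Nextera tagmentation, per the labels' protocols, with reads of 150 bases. The authors deposited raw counts per Ensembl gene, in 2 lane columns per library, which were summed. Tools listed, without roles, in the submitters' processing notes are HTSeq 0.6.1p1, STAR 2.4.2a and Picard 1.139, with GRCm38.p5 and GRCh38 as builds. Neither the annotation release nor the treatment of reads that match several genes is stated there. Summed counts ranged from 40451075 to 89624373 per library. PCR copies were not separated, so intervals and floors cover counting error only.

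Of 51912 gene identifiers 51633 matched a symbol and a position in GENCODE M21 (GRCm38). Counts were fitted with edgeR 4.0.16 in R 4.3.3, with filterByExpr defaults (minimum count 10, total 15), TMM scaling, a robust quasi-likelihood fit and the group as the only term. Genes passed at a Benjamini-Hochberg adjusted p under 0.05 over 16512 genes, two-sided. Each SE was taken as the size of the log2 change over the root of F. DESeq2 1.42.0 and limma 3.58.1 were alternatives. On simulated counts of 16512 genes, the fit recovered 48 of 73 at 2-fold, 61 of 62 at 4-fold and 61 of 64 at 8-fold, and 9 of 179 calls were false. The changed genes were drawn only above a minimum mean count. Apol6, Apol7b, Apol7e, Apol10a and Apol10b lay below it, so these rates do not cover them. Transcript windows, promoter motifs and alignments were computed with Python 3.11.15 and Biopython 1.88.

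Members and gene lists were chosen with earlier results of these data known. Named genes were the members, other Apol names, Tnfaip3, Krt5, neighbours within 250 kb, up to 3 passing genes of each list (or up to 2 of its most abundant) and the 3 genes most like each tested member. Others, among them Ifngr1, Ifngr2, Ifnar1, Ifnar2, Ifnlr1, Ifnb1, Ly6c2, Krt15, Retnlg, Csf3r, Ly6g, Clec9a and the ligands at 0, were named after their values were seen. So were the ligands Ifnk and Ifng and the macrophage markers Csf1r, Adgre1, Cd68, Cd14 and Lyz2. A gene that this rule would name is not reported here.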

Additional observations from a re-analysis of the deposited data

Results flagged for a closer look

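In 3 of 51 groups of 4 libraries examined, over the Apol genes, their neighbours, Tnfaip3 and Krt5, 1 library lay far from the other 3. Chance gives about 1 such group in 20 for values on a continuous scale. That rate does not hold for Apol10b and Apol6, because with the other 3 libraries at 0 any count sets the flag. Apol10b had 0.202 CPM in A20WT mouse 4, from 13 counts, and 0 counts in A20WT mice 1 to 3. Apol6 had 0.0691 CPM in A20WT mouse 1, from 6 counts, and 0 counts in the other libraries labelled A20WT. The neighbouring gene Arhgap39 had 4.46 CPM in A20WT mouse 1, against 9.86 to 10.3 CPM in A20WT mice 2 to 4.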

How the results depend on the processing

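Apol9a, Apol9b and Apol7a passed as higher in the reported fit and under all 17 alternatives: other size factors, no filter, a stricter filter, a non-robust fit, DESeq2, limma-voom, the replicate number as a block, each library left out, and each lane alone. The lanes, and pooled ratios without single libraries, were chosen after seeing the data. Their log2 changes ranged from 3.26 to 3.70, 4.81 to 5.27 and 2.13 to 2.52. Apol7c ranged from 0.02 to 0.91 and Apol8 from -0.17 to 0.86, and neither passed under any of them. The number of members that passed was 3 to 4 with a library left out. Apol10b also passed in limma-voom and without A20WT mouse 4, where its fitted log2 change was 8.58 against libraries at 0 counts and is no bound. Apol7e also passed without a filter and without A20KIKO mouse 2. No neighbour passed under any alternative.

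The number of genes called in all was 576, with 1133 in DESeq2, and 348 to 619 with a library left out (348 without A20KIKO mouse 1, 355 without A20WT mouse 3). The causes were not tested. Of the interferon receptors and transducers 3 to 5 passed with a library left out. With the replicate block 551 genes were called. The numbers do not pair the mice by the labels, and same-numbered libraries deviated together with correlations of 0.041, 0.064, -0.014 and 0.24 across genes. Of the type I interferon-stimulated genes 21 to 30 passed with a library left out. Depth limits Apol6, Apol7b, Apol7e, Apol10a and Apol10b, and shared sequence limits the Apol9 and Apol7b with Apol7e pairs.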
